A study of Mus musculus with 11 samples.

Results

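Histone and DNA modifying enzymes were examined as a group of 45 genes in mouse testis. The group was listed by name and function, with earlier results of these data known. It holds methyltransferases, demethylases, acetyltransferases and deacetylases of histones, the enzymes that write and oxidise DNA methylation, and a pair of chromatin remodelers. All 45 genes were found among the 24411 genes of the count table. Polyadenylated RNA of decapsulated whole testes was sequenced from untreated mice aged 20 weeks, in 4 WT mice (C57Bl/6J), 4 Irp1-/- mice and 3 Irp2-/- mice. Irp1-/- mice carry a global knockout of Aco1, the gene of iron regulatory protein 1, and Irp2-/- mice a global knockout of Ireb2, the gene of iron regulatory protein 2. Both proteins bind messenger RNAs of iron metabolism when a cell is short of iron. The knockouts are not restricted to a cell type, so an effect can arise outside the testis as well as within any of its cells. The Irp1-/- line was the Aco1tm1Roua allele on a C57Bl/6J background, and the origin of the Irp2-/- mice is not given in the sources used here. The paper describes its WT controls as littermates from crosses of Irp1+/- mice. Loss of Ireb2 and any other difference between the Irp2-/- line and these controls cannot be told apart by this design. The series was made to find expression changes related to spermatogenesis in Irp1-/- testes, and the Irp2-/- libraries were sequenced beside them.

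Enzymes of this kind set and remove the chemical marks on histone tails and on cytosine that decide which genes a cell can read. In the testis they silence retroelements and heterochromatin in spermatogonia and spermatocytes, prepare the sex chromosomes for their inactivation in meiosis, and precede the exchange of histones for protamines in spermatids. Several of them need iron directly: the Jumonji C (JmjC) histone demethylases and the TET enzymes are dioxygenases that use ferrous iron and 2-oxoglutarate, whereas Kdm1a removes methyl groups with a flavin cofactor and the methyltransferases use S-adenosylmethionine.

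Total counts per library lay between 15902473 and 22451417, and 42 of the 45 genes had at least 100 counts in every library. In all 15 pairs of mice that share a genotype the counts differed beyond sampling noise (chi-square per degree of freedom 2.003 to 7.053). The targeted genes followed the labels. Ireb2 lay between 61.6 and 63.0 CPM (counts scaled to a common library size) in Irp2-/- mice, compared to 131 to 144 CPM in WT mice (log2 fold change -1.17, SE 0.050, adjusted p = 2.8e-13, edgeR). Aco1 lay between 7.94 and 9.15 CPM in Irp1-/- mice, compared to 9.78 to 12.9 CPM in WT mice (log2 fold change -0.45, SE 0.098, adjusted p = 0.0158, edgeR), so its transcript was still counted in the knockout. Germ cell markers were abundant, with 6 elongating spermatid genes summing to 15520 to 20260 CPM. Markers of epididymis summed to 2.66 to 4.46 CPM, and Lcn5 of that list was at 0 in every library. Of the blood list, Hbb-bs was at 0 in every library, but Hba-a1 was at 7.41 to 30.4 CPM. WT replicates 1 and 2 stood apart in Cyp11a1, Cyp17a1 and Lhcgr, genes of Leydig cells, the steroid-producing cells between the tubules. They had 34.5 and 29.0 CPM of Cyp11a1, against 84.3 and 75.3 CPM in WT replicates 3 and 4 and 69.3 to 113 CPM in the knockouts. Star of the same list did not set both apart. It had 55.8 and 41.8 CPM in them, 50.8 CPM in Irp1-/- replicate 6 and 52.6 CPM in Irp2-/- replicate 2. The 6 Leydig cell markers summed to 707 and 685 CPM in them and to 707 CPM in Irp2-/- replicate 2. In bulk tissue, fewer cells of a type and less RNA per cell cannot be told apart.

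Levels of the 45 genes in WT testes spanned a wide range when divided by exon length. Chd5, a remodeler known from the exchange of histones for protamines in spermatids, had the highest level at 78.5 ± 2.26 CPM per kb of exon (SD, n = 4), and Ehmt2, the main H3K9 mono- and dimethylase, had 76.7 ± 2.85. Their values overlapped between mice, and with the longest transcript as the length Ehmt2 and Hdac1 stood above Chd5. Hdac1, a class I deacetylase, had 56.4 ± 2.33 CPM per kb, Chd4, the remodeling ATPase of the NuRD complex, 45.8 ± 0.810, and Kdm4d, a testis-rich H3K9 demethylase, 42.5 ± 2.23. At the other end stood the TET dioxygenases, with Tet3 at 0.469 ± 0.050, Tet2 at 0.181 ± 0.013 and Tet1 at 0.0483 ± 0.024 CPM per kb. Placed among 16180 genes by level per kb, the median of the 45 genes was at the 66.7th percentile, 34 lay above the 50th and 5 above the 90th. In the order of WT levels, 27 of 44 neighbouring pairs overlapped between mice and 17 did not.

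**Figure D1:**
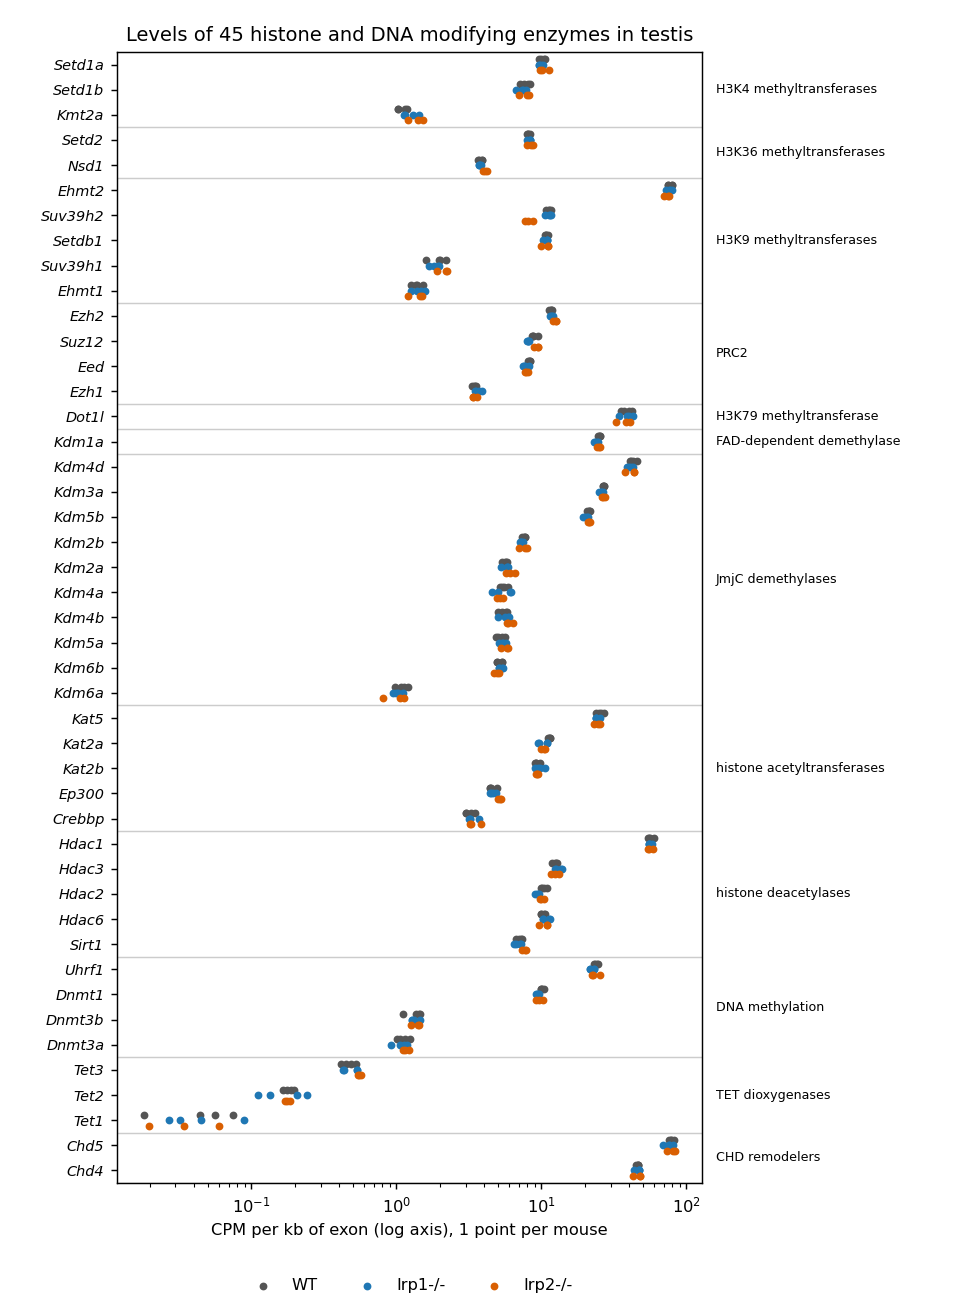
Level of each of the 45 enzymes in CPM per kb of exon (log axis), grouped by role, with 1 point per mouse in WT (n = 4), Irp1-/- (n = 4) and Irp2-/- (n = 3). The genotypes lie on top of each other for nearly every gene, from Chd5 and Ehmt2 at the right to Tet1 at the left. Suv39h2 is an exception, with the Irp2-/- points left of all others.

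Enzymes with the same activity were expressed at unequal levels, and the order within most pairs held in every mouse. Ehmt2 exceeded its partner Ehmt1 by 55.9 ± 4.80 times (SD, n = 4 WT mice, levels per kb). Kdm4d exceeded Kdm4a by 7.78 ± 0.625 times and Kdm4b by 7.82 ± 0.838 times. Hdac1 stood 5.44 ± 0.338 times above Hdac2, and Suv39h2 was 5.87 ± 0.839 times as high as Suv39h1 (3.53 times with the longest transcripts as the length). These 5 orders held in 11 of 11 mice. Kdm5b was 4.09 ± 0.279 times as high as Kdm5a, which removes the same H3K4 methyl groups, and Kdm6b 4.73 ± 0.259 times as high as the X-linked H3K27 demethylase Kdm6a. Smaller ratios were found for the PRC2 methylases, with Ezh2 at 3.36 ± 0.152 times Ezh1, and for the acetyltransferases, with Ep300 at 1.44 ± 0.141 times Crebbp, again in 11 of 11 mice. Kat2a was above Kat2b in 10 of 11 mice. Setd1b had 0.767 times the level of Setd1a by union exon length and 0.998 times by longest transcript. The order of Dnmt3a and Dnmt3b turned with the length used, at 0.842 and 1.22 times. Within WT the median coefficient of variation of the 45 genes was 4.12%, compared to 4.32% in Irp1-/- and 5.46% in Irp2-/- testes, so mice of one genotype were close to each other.

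Most of these enzymes differed little between the genotypes. In Irp1-/- against WT testes none of the 45 had an adjusted p under 0.05 in edgeR or in DESeq2, against 1.02% of the 16002 genes tested in edgeR and 1.27% in DESeq2. At an unadjusted p under 0.05, edgeR gave 6 members and DESeq2 7 (9.87% of all genes with an adjusted p in DESeq2). In edgeR 1 of them was higher (background 6.69% of all tested genes) and 5 were lower (5.44%). The values of the 4 knockout and 4 WT mice did not overlap for 0 members on the high side (3.37%) and for 6 on the low side (3.22%), namely Suz12, Kdm1a, Kdm3a, Kat2a, Hdac2 and Dnmt1. The median log2 fold change was -0.01, against 0.00 over all tested genes, and single values ran from -0.15 to 0.19. The sign was positive for 17 members and negative for 28, and scaling by total counts made this 23 and 22.

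In Irp2-/- against WT testes 2 of the 45 members passed the adjusted threshold, Suv39h2 lower and Kmt2a higher, with 1.21% of 16154 tested genes called. DESeq2 called Suv39h2 alone (1.07% of its genes) and gave 3 members an unadjusted p under 0.05 (6.05%). At an unadjusted p under 0.05, 7 members were higher (4.69% of all tested genes) and 2 lower (4.74%). Groups did not overlap for 6 members on the high side (4.57%) and 3 on the low side (4.74%). The former were Kmt2a, Nsd1, Ezh2, Ep300, Sirt1 and Tet3, and the latter Suv39h2, Eed and Kat2a. The median log2 fold change of the members was 0.01, against 0.00 over all tested genes, with 26 positive and 19 negative values (31 and 14 after scaling by total counts).

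Between the knockouts, Suv39h2 was lower in Irp2-/- than in Irp1-/- testes and Suz12 higher at the adjusted threshold, with 4.69% of 16281 tested genes called. Here too DESeq2 called Suv39h2 alone (3.83% of its genes), with 5 members at an unadjusted p under 0.05 (12.0%). At an unadjusted p under 0.05, 4 members were higher (7.49%) and 1 lower (8.85%). The mice did not overlap for 7 members on the high side (7.25%), namely Nsd1, Ezh2, Suz12, Ep300, Hdac2, Sirt1 and Tet3, and for 1 on the low side (7.9%), Suv39h2. The median was 0.04, against 0.00 over all tested genes. The WT mice serve in 2 of the 3 comparisons and the Irp2-/- mice in 2, so the comparisons are not independent of each other.

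For most members the data bounded a change tightly. The 95% interval of the fold change stayed within 1.3-fold in either direction (0.38 on the log2 scale) for 43 of 45 members in Irp1-/- against WT, 41 in Irp2-/- against WT and 40 in Irp2-/- against Irp1-/- testes. The exceptions against WT were Tet1 and Tet2 in Irp1-/- and Kmt2a, Suv39h2, Tet1 and Tet3 in Irp2-/- testes. Between the knockouts they were Suv39h1, Suv39h2 and the 3 Tet genes.

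**Figure D2:**
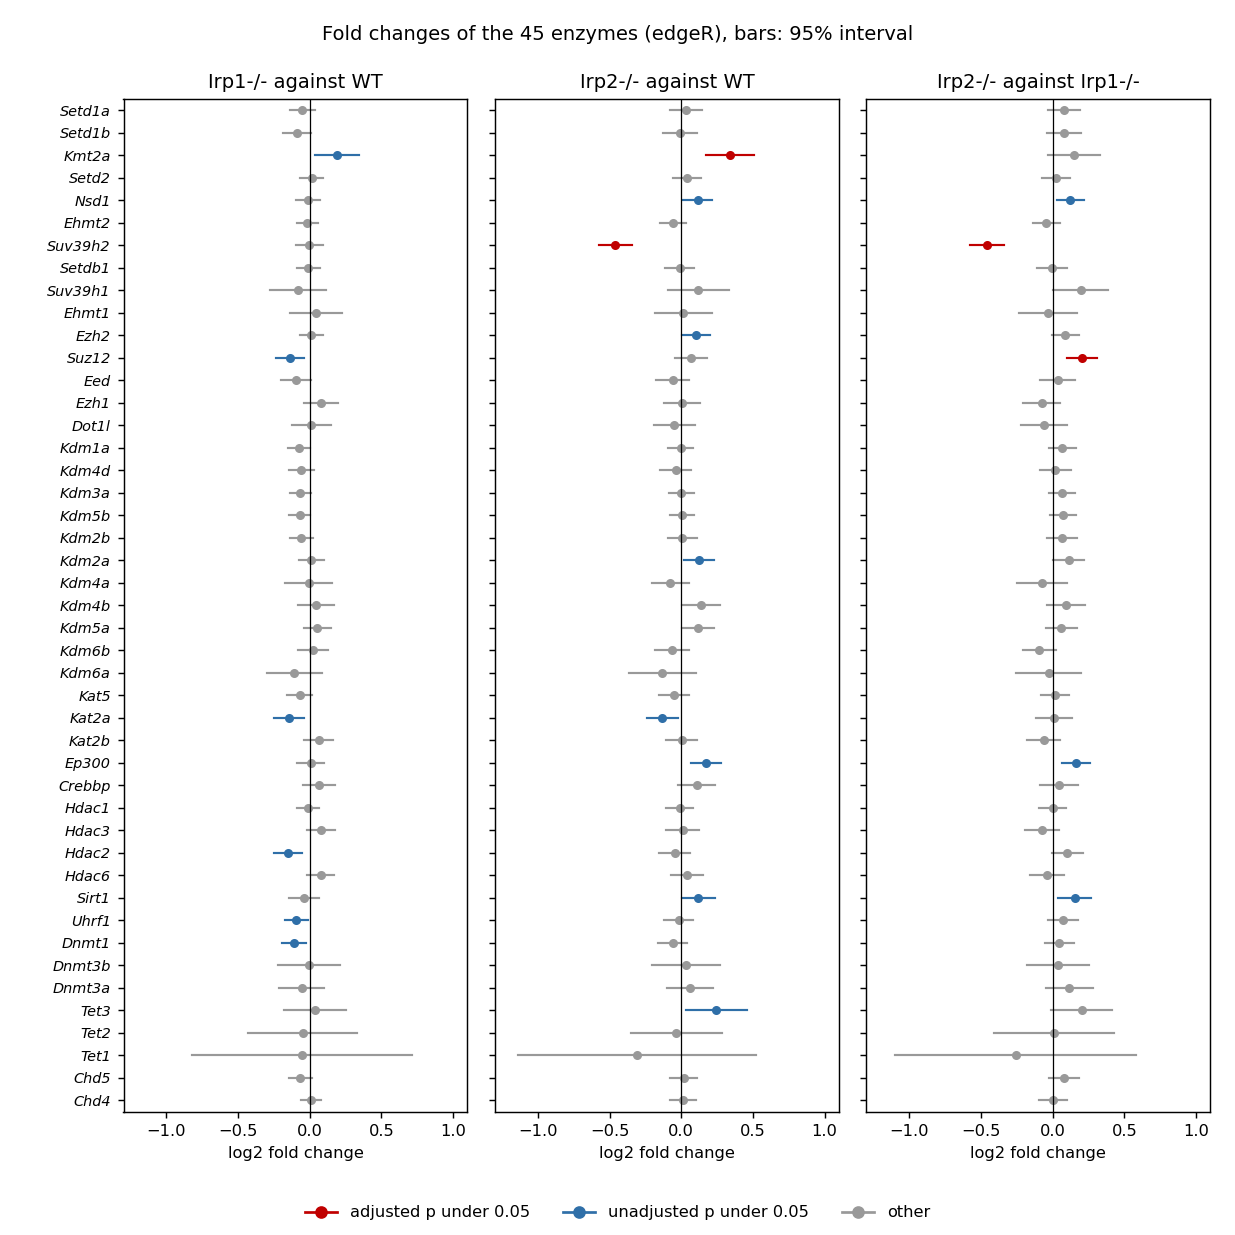
Log2 fold change of each of the 45 enzymes with its 95% interval in the 3 comparisons (edgeR), coloured by whether the adjusted or only the unadjusted p was under 0.05. Suv39h2 at -0.46 in both comparisons of Irp2-/- testes lies apart from the other members, most of which sit within 0.2 of zero.

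Among the H3K9 methyltransferases, Suv39h2 was lower in Irp2-/- testes than in both other genotypes, while the other 4 members did not pass the test. Suv39h2 trimethylates H3K9 in constitutive heterochromatin and is, unlike the broadly expressed Suv39h1, found mainly in the germ line of adult mice. Mice lacking both Suv39h genes have defective spermatogenesis. The gene lies at chr2:3455815-3475031 on the minus strand (mm10), away from the chromosomes of Aco1 and Ireb2. Its level was 38.5, 34.0 and 35.4 CPM in the 3 Irp2-/- mice, compared to 51.6, 49.6, 49.8 and 47.8 CPM in WT and 50.6, 51.7, 46.8 and 49.6 CPM in Irp1-/- mice. Every Irp2-/- mouse was thus below every mouse of the other genotypes, and WT and Irp1-/- mice overlapped. Suv39h2 fell by 27.3% in Irp2-/- against WT testes (log2 fold change -0.46, SE 0.059, adjusted p = 5.6e-05, edgeR). Against Irp1-/- testes the log2 fold change was -0.46 as well (SE 0.060, adjusted p = 4.4e-05, edgeR). For Irp1-/- against WT testes the value was 0.00, with a 95% interval from -0.10 to 0.09. Here too, loss of Ireb2 and a difference between the mouse lines cannot be told apart. The call in Irp2-/- against WT testes was kept in all 14 alternative analyses, with adjusted p values (edgeR or DESeq2) from 6.9e-08 to 0.00171 and log2 fold changes from -0.52 to -0.42 when single mice were left out.

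Suv39h1, the X-linked paralog of Suv39h2, had 11.8, 10.1 and 11.5 CPM in Irp2-/- mice. WT mice had 10.3, 8.47, 11.7 and 10.6 CPM, so the groups overlapped. The log2 fold change was 0.12 with an SE of 0.109 and did not pass the test (adjusted p = 0.843, edgeR). By union exon length the ratio of Suv39h2 to Suv39h1 was 3.87 ± 0.180 in Irp2-/- (SD, n = 3), 5.87 ± 0.839 in WT and 6.10 ± 0.249 in Irp1-/- mice (SD, n = 4 each). Ehmt2, Ehmt1 and Setdb1, the H3K9 trimethylase of silenced retroelements, had log2 fold changes of -0.06, 0.01 and -0.01 in Irp2-/- against WT testes.

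As for 8 of the 45 members, exons of Suv39h2 overlap those of another counted gene. Of its 4410 exon bases, 357 (8.1%) also belong to Dclre1c, which is transcribed from the other strand. Libraries were stranded, but the strand setting of the counting is not given in the sources used here. Dclre1c had 8.73, 10.3 and 9.46 CPM in Irp2-/- and 8.78 to 9.71 CPM in WT mice (log2 fold change 0.03, SE 0.102). The neighbour on the other side, Hspa14, had a log2 fold change of 0.04 (SE 0.081). Among 18 tested genes within 2 Mb of Suv39h2, 0 had an adjusted p under 0.05 in edgeR (background 1.21%) or DESeq2 (1.07%). In edgeR 2 had an unadjusted p under 0.05 (background 4.69% higher, 4.74% lower), and the median log2 fold change was 0.03. Summed spermatogonial and spermatocyte markers overlapped between Irp2-/- and WT mice. The 6 spermatogonial markers summed to 102 to 120 CPM in Irp2-/- and 96.6 to 112 CPM in WT mice, and the 6 spermatocyte markers to 1023 to 1086 CPM and 1026 to 1089 CPM. Of the elongating spermatid markers, 6 of 6 had negative log2 fold changes in Irp2-/- against WT testes (median -0.10). The part of the cell composition in the lower values of Suv39h2 was not tested.

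**Figure D3:**
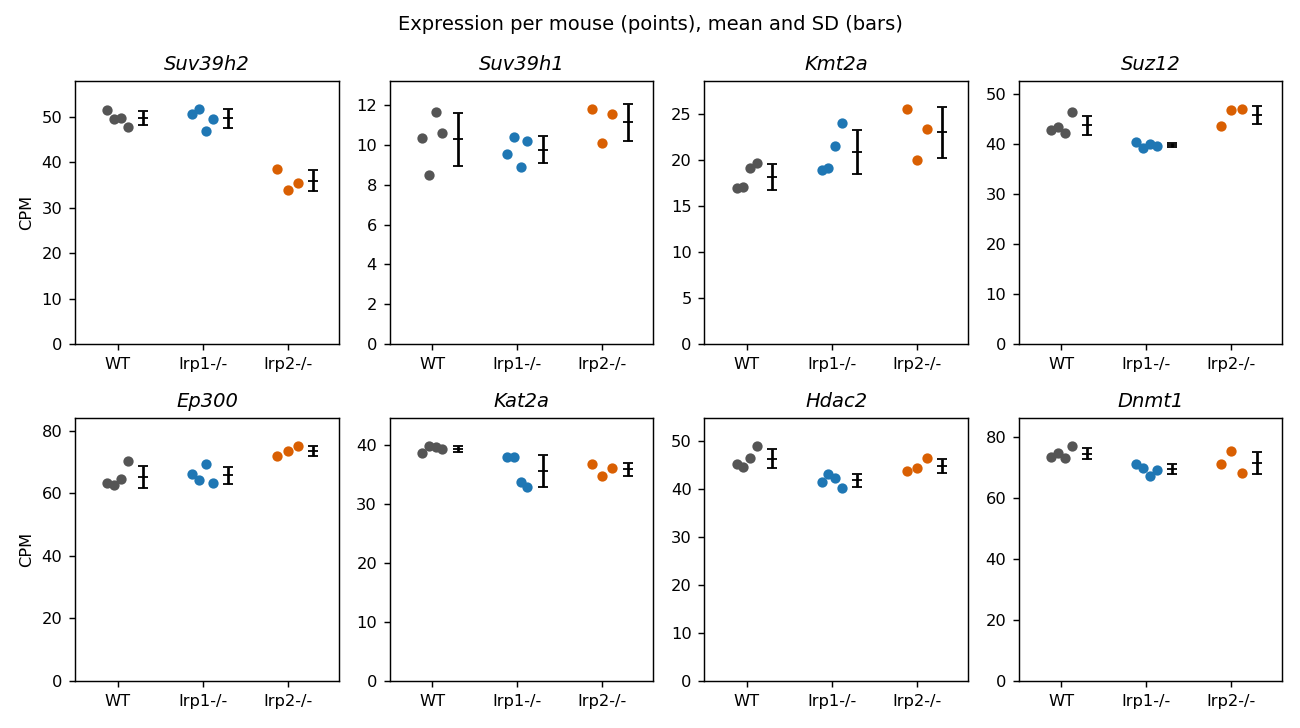
CPM of 8 enzymes in each mouse (points), with the mean and SD beside each genotype (bars; n = 4 WT, 4 Irp1-/-, 3 Irp2-/-). Suv39h2 lies between 34.0 and 38.5 CPM in Irp2-/- mice and above 46 CPM in all others, while its paralog Suv39h1 overlaps between genotypes, as do several of the smaller differences.

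Among the H3K4 methyltransferases, Kmt2a had the largest positive fold change of all 45 members, in Irp2-/- against WT testes. Kmt2a (MLL1) methylates H3K4 at promoters, the Hox genes among them, and was expressed at only 1.09 ± 0.085 CPM per kb in WT testes. It had 25.6, 20.1 and 23.5 CPM in Irp2-/- mice, 16.99, 17.06, 19.1 and 19.8 CPM in WT and 18.9, 19.2, 21.6 and 24.1 CPM in Irp1-/- mice. The lowest Irp2-/- mouse was just above the highest WT mouse, and Irp1-/- mice overlapped with both. Kmt2a was 26.7% higher in Irp2-/- than in WT testes (log2 fold change 0.34, SE 0.086, adjusted p = 0.0485, edgeR). The call was near the threshold, and 9 of 14 alternatives gave an adjusted p over 0.05 (edgeR or DESeq2, range 0.0175 to 0.228). Without Irp2-/- replicate 1 the log2 fold change was 0.26 (adjusted p = 0.228, edgeR). The lowest WT values of Kmt2a belonged to replicates 1 and 2, which were also those low in some Leydig cell genes, such as Cyp11a1. Without either the log2 fold change was 0.31 (adjusted p = 0.128 and 0.150, edgeR). The part of that difference in the result was not tested. In Irp1-/- against WT testes the log2 fold change was 0.19 (SE 0.079, adjusted p = 0.311, edgeR).

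Kmt2a lies on chromosome 9 (chr9:44803355-44881296, minus strand, mm10), 10.1 Mb from Ireb2, the gene deleted in Irp2-/- mice. Among 54 tested genes within 2 Mb of Kmt2a, 0 had an adjusted p under 0.05 in edgeR or DESeq2. In edgeR 4 had an unadjusted p under 0.05 (background 4.69% higher, 4.74% lower), and the median log2 fold change was -0.01. Of 88 tested genes between Kmt2a and Ireb2, 5 had an adjusted p under 0.05 in edgeR (background 1.21%) and 4 in DESeq2 (1.07%). At an unadjusted p under 0.05 edgeR gave 15, and the log2 fold changes of the 88 ran from -0.91 to 1.43. Loss of Ireb2 and any difference in the DNA linked to it cannot be told apart by this design. The other members on chromosome 9 were Dnmt1, Kdm4d and Setd2, at 34.0, 40.4 and 55.7 Mb from Ireb2, with log2 fold changes from -0.06 to 0.04 in Irp2-/- against WT testes. On the chromosome of Aco1, Kdm4a, Hdac1, Kdm1a and Chd5 lay at 78.0 to 112 Mb and had log2 fold changes from -0.07 to -0.01 in Irp1-/- against WT testes. Setd1a and Setd1b, the catalytic subunits of the COMPASS complexes, had log2 fold changes of 0.03 and -0.01 in Irp2-/- and of -0.05 and -0.09 in Irp1-/- against WT testes.

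PRC2, the complex that methylates H3K27 for gene silencing, has Ezh1 or Ezh2 as its methylase and Eed and Suz12 as core subunits. Suz12 differed between the knockouts. It had 43.7, 46.8 and 47.0 CPM in Irp2-/- mice and 40.5, 39.3, 40.0 and 39.7 CPM in Irp1-/- mice, with WT mice at 42.9, 43.5, 42.3 and 46.5 CPM. Irp1-/- mice were below all WT mice, and Irp2-/- mice overlapped with WT. The log2 fold change of Suz12 in Irp2-/- against Irp1-/- testes was 0.20 (SE 0.054, adjusted p = 0.0319, edgeR). The adjusted p was over 0.05 in 8 of 14 alternatives (edgeR or DESeq2, range 0.0182 to 0.201), among them every fit without an Irp1-/- mouse (0.0520 to 0.0862) and those without Irp2-/- replicate 2 or 3 (0.134 and 0.129). In Irp1-/- against WT testes the log2 fold change was -0.14 (SE 0.049, adjusted p = 0.207, edgeR), and in Irp2-/- against WT 0.07 (SE 0.057). Ezh2 had 80.01, 84.6 and 84.7 CPM in Irp2-/- mice, all above the WT range of 75.3 to 79.1 CPM, with a log2 fold change of 0.10 (SE 0.048, adjusted p = 0.503, edgeR). Eed was at 30.0, 29.6 and 31.1 CPM in Irp2-/- mice and at 31.1 to 32.0 CPM in WT mice. Ezh1 had a log2 fold change of 0.00 in Irp2-/- and 0.08 in Irp1-/- against WT testes. Spermatocyte markers summed to 1023 to 1086 CPM in Irp2-/- and 995 to 1023 CPM in Irp1-/- mice, and their part in the difference of Suz12 was not tested. The PRC2 subunits did not share a direction in either comparison with WT.

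The H3K36 methylases Setd2, which follows elongating RNA polymerase, and Nsd1 did not pass the test in any comparison. Nsd1 had 69.2, 71.4 and 73.4 CPM in Irp2-/- mice, above the 63.7 to 68.1 CPM of WT and the 64.6 to 66.9 CPM of Irp1-/- mice (log2 fold change 0.11 against WT, SE 0.051, adjusted p = 0.455, edgeR). Setd2 had log2 fold changes of 0.04 in Irp2-/- and 0.01 in Irp1-/- against WT testes. Dot1l, the H3K79 methylase, was at 337 ± 25.6 CPM in WT (SD, n = 4), 341 ± 32.0 CPM in Irp1-/- (SD, n = 4) and 326 ± 36.3 CPM in Irp2-/- testes (SD, n = 3), differences within the spread of the mice.

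The 13 members that use iron and 2-oxoglutarate, 10 JmjC demethylases and 3 TET enzymes, were of interest because the knockouts lack regulators of cellular iron. None of the 13 had an adjusted p under 0.05 in any of the 3 comparisons in edgeR or DESeq2. At an unadjusted p under 0.05, edgeR gave 0 of the 13 in Irp1-/- against WT, where 6.69% of all tested genes were higher and 5.44% lower. It gave 2 higher ones in Irp2-/- against WT (background 4.69%) and 0 in Irp2-/- against Irp1-/- testes (7.49% higher, 8.85% lower). DESeq2 gave 1, 0 and 0 (background 9.87%, 6.05% and 12.0%), the 1 being Kdm5b. Their median log2 fold changes were -0.05, 0.00 and 0.06, against -0.01, 0.01 and 0.04 over the other 32 members. These are levels of RNA, and the activity of the enzymes was not measured.

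Kdm3a, an H3K9 demethylase needed for the expression of transition proteins and protamines, varied least between WT mice among the JmjC genes. It had 217, 222, 219 and 222 CPM in WT mice, 211, 217, 211 and 205 CPM in Irp1-/- mice and 214, 226 and 219 CPM in Irp2-/- mice. All Irp1-/- mice were just below the lowest WT mouse, with groups nearly touching and a log2 fold change of -0.07 (SE 0.037) that did not pass the unadjusted test. Kdm5b was at 350 ± 5.24 CPM in WT (SD, n = 4), 334 ± 12.7 CPM in Irp1-/- (SD, n = 4) and 351 ± 5.50 CPM in Irp2-/- testes (SD, n = 3), with a log2 fold change of -0.07 (SE 0.037) in Irp1-/- against WT that did not pass the unadjusted test in edgeR. Kdm2a, an H3K36 demethylase, had 82.1, 94.3 and 88.4 CPM in Irp2-/- mice and 80.8, 76.8, 83.8 and 82.9 CPM in WT mice. Those groups overlapped (log2 fold change 0.12, SE 0.054, adjusted p = 0.433, edgeR). Kdm2b, Kdm4a, Kdm4b, Kdm4d, Kdm5a, Kdm6a and Kdm6b had log2 fold changes from -0.13 to 0.14 in Irp2-/- and from -0.11 to 0.05 in Irp1-/- against WT testes, and none passed the unadjusted test. The X-linked Kdm6a had the widest interval of them in Irp2-/- testes, where it was at 8.82, 6.75 and 9.51 CPM.

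Kdm1a (LSD1), which removes mono- and dimethyl groups from H3K4 without iron, was at 127, 130, 129 and 132 CPM in WT mice and at 122, 120, 126 and 125 CPM in Irp1-/- mice. These groups did not overlap, but the fold change was small and did not pass the unadjusted test (log2 fold change -0.07, SE 0.039). Irp2-/- mice had 130, 126 and 131 CPM.

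Histone acetyltransferases open chromatin. At an unadjusted p under 0.05 in Irp2-/- against WT testes, edgeR gave 1 of the 5 higher (background 4.69%) and 1 lower (4.74%). DESeq2 gave 1 of the 5 in either direction (6.05%). Ep300 (p300), which acetylates H3K27 at enhancers, had 71.8, 73.6 and 75.1 CPM in Irp2-/- mice, 63.4, 62.7, 64.5 and 70.4 CPM in WT and 66.2, 64.2, 69.3 and 63.2 CPM in Irp1-/- mice. Every Irp2-/- mouse was above every other mouse. The log2 fold change was 0.17 against WT (SE 0.053, adjusted p = 0.142, edgeR) and 0.16 against Irp1-/- testes (SE 0.051, adjusted p = 0.0726, edgeR), so neither passed. Its paralog Crebbp (CBP) had a log2 fold change of 0.11 against WT (SE 0.066). Kat2a (GCN5) was at 36.7, 34.7 and 36.1 CPM in Irp2-/- and at 37.9, 38.0, 33.7 and 32.9 CPM in Irp1-/- mice, below the 38.7, 39.8, 39.7 and 39.3 CPM of the WT mice. WT replicates were close together here, with a coefficient of variation of 1.33%. The log2 fold change of Kat2a was -0.13 in Irp2-/- (SE 0.056, adjusted p = 0.418, edgeR) and -0.14 in Irp1-/- against WT testes (SE 0.055, adjusted p = 0.245, edgeR). The same 4 WT mice enter both values. Kat2b and Kat5 (TIP60) had log2 fold changes from -0.07 to 0.06 against WT in both knockouts.

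Of the deacetylases, Hdac2 gave the smallest p of all 45 members in Irp1-/- against WT testes. Hdac2 and Hdac1 are class I enzymes of the NuRD, Sin3 and CoREST complexes. Hdac2 had 41.6, 43.2, 42.3 and 40.2 CPM in Irp1-/- mice and 45.4, 44.7, 46.5 and 49.1 CPM in WT mice. The groups did not overlap, with a log2 fold change of -0.15 (SE 0.049) and an adjusted p of 0.161 in edgeR that did not pass (0.151 to 0.618 over 15 alternatives). Hdac1 was at 193 ± 5.02 CPM in Irp1-/- and 194 ± 8.02 CPM in WT testes (SD, n = 4 each). Sirt1, an NAD-dependent deacetylase, had 41.1, 41.5 and 39.4 CPM in Irp2-/- mice, 35.4 to 38.9 CPM in WT and 34.7 to 38.6 CPM in Irp1-/- mice. Its log2 fold change was 0.12 against WT (SE 0.058, adjusted p = 0.529, edgeR) and 0.15 against Irp1-/- testes (SE 0.058, adjusted p = 0.165, edgeR). Hdac3, the deacetylase of the NCoR complexes, and the X-linked tubulin deacetylase Hdac6 had log2 fold changes of 0.08 and 0.08 in Irp1-/- and 0.01 and 0.04 in Irp2-/- against WT testes.

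The 4 DNA methylation genes all had negative log2 fold changes in Irp1-/- against WT testes, from -0.11 to -0.01, and none passed the adjusted test. Negative values were found for 28 of all 45 members in this comparison. The sign was kept in 8 of 15 alternatives for Dnmt3b and in 12 of 15 for Dnmt3a. Dnmt1 copies methylation onto new DNA strands, guided by Uhrf1, which recognises hemimethylated sites. Dnmt1 had 71.2, 69.9, 67.3 and 69.1 CPM in Irp1-/- and 73.4, 74.7, 73.2 and 77.1 CPM in WT mice, without overlap (log2 fold change -0.11, SE 0.043, adjusted p = 0.274, edgeR). Uhrf1 had 98.6, 92.7, 97.4 and 92.6 CPM in Irp1-/- and 105, 103, 100.4 and 98.2 CPM in WT mice, with overlap at 1 mouse (log2 fold change -0.09, SE 0.041, adjusted p = 0.340, edgeR). The de novo methylases Dnmt3a and Dnmt3b were low, at 18.6 ± 1.72 and 6.82 ± 0.793 CPM in WT, and had log2 fold changes of -0.06 and -0.01. The 4 genes had log2 fold changes from -0.06 to 0.06 in Irp2-/- against WT testes.

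Of the marker lists, the sums of 3 did not overlap between Irp1-/- and WT mice, and those of all others did, Leydig cells included. The 6 spermatocyte markers summed to 995 to 1023 CPM in Irp1-/- and 1026 to 1089 CPM in WT mice, with 4 of 6 at a negative log2 fold change (median -0.08). The 6 Sertoli cell markers summed to 325 to 362 CPM in Irp1-/- and 304 to 321 CPM in WT mice, with 6 of 6 positive (median 0.09). The 4 blood markers summed to 37.2 to 52.9 CPM in Irp1-/- and 22.7 to 37.1 CPM in WT mice, with 3 of 3 tested genes positive (median 0.74). The spermatocyte sums and the blood sums nearly touched between genotypes. Of these 3 lists 0 genes had an adjusted p under 0.05 in edgeR (background 1.02%) or DESeq2 (1.27%). At an unadjusted p under 0.05 edgeR gave 2 lower spermatocyte genes (background 5.44%), 3 higher Sertoli cell genes (6.69%) and 0 blood genes. The 6 Leydig cell markers summed to 918 to 1120 CPM in Irp1-/- and 685 to 966 CPM in WT mice, with 6 of 6 positive (median 0.40), 2 of them at an unadjusted p under 0.05 and 0 at the adjusted threshold in edgeR, and 1 at the adjusted threshold in DESeq2. The part of the cell composition in the lower values of Hdac2, Suz12, Kat2a, Dnmt1 and Uhrf1 was not tested.

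TET enzymes oxidise methylcytosine as a step of DNA demethylation. Tet3 had 9.13, 9.20 and 9.46 CPM in Irp2-/- mice, above the 8.10, 7.47, 8.85 and 6.90 CPM of the WT mice (log2 fold change 0.24, SE 0.108, adjusted p = 0.450, edgeR). Tet1, below 1.4 CPM in every library, and Tet2, at 1.89 to 4.09 CPM, were too low for a firm statement, with standard errors of 0.42 and 0.16 in Irp2-/- against WT testes. The 95% interval of Tet1 ran from -1.14 to 0.52 on the log2 scale, so changes within these bounds were compatible with the data. The remodelers Chd4 and Chd5 had log2 fold changes of 0.01 and 0.02 in Irp2-/- and of 0.01 and -0.07 in Irp1-/- against WT testes, and neither passed the test.

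Exon length was compared with the fold changes. The median exon length of the 45 members was 6954 bases, compared to 4081 bases over the tested genes, and 14 members exceeded 10 kb. Of these 14, 11 had a positive log2 fold change in Irp2-/- against WT testes and their median was 0.09. Over all 1408 tested genes above 10 kb the median was 0.03, and over the 2996 genes up to 2 kb it was -0.02, so fold changes rose with length across the transcriptome as well. At an unadjusted p under 0.05 in edgeR, 5 of the 14 long members and 2 of the 31 shorter ones were higher (4.69% of all tested genes). The 5 were Kmt2a, Nsd1, Kdm2a, Ep300 and Tet3. The share that was higher among all genes above 10 kb was not computed. The 31 shorter members had a median of 0.00, with 15 positive values. The long members had a median of 0.00 in Irp1-/- against WT testes, and all genes above 10 kb had one of -0.01.

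The shift with length differed among the Irp2-/- mice. For the 14 long members the median difference from the WT mean was 0.02, 0.09 and 0.13 on the log2 scale in Irp2-/- replicates 1, 2 and 3, and for all genes above 10 kb it was 0.00, 0.03 and 0.06. WT mice spread from -0.06 to 0.04 in the long members. Genes up to 2 kb ran the other way, with 0.03, -0.04 and -0.07 in the same 3 mice. Irp2-/- replicate 3 had the lowest sum of elongating spermatid markers, 15520 CPM compared to 18760 and 18080 CPM in replicates 1 and 2 and 18370 to 19230 CPM in WT mice, and was the highest of its genotype for 19 of 45 members. The part of transcript length and of this library in the small positive values of Irp2-/- testes was not tested.

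**Figure D4:**
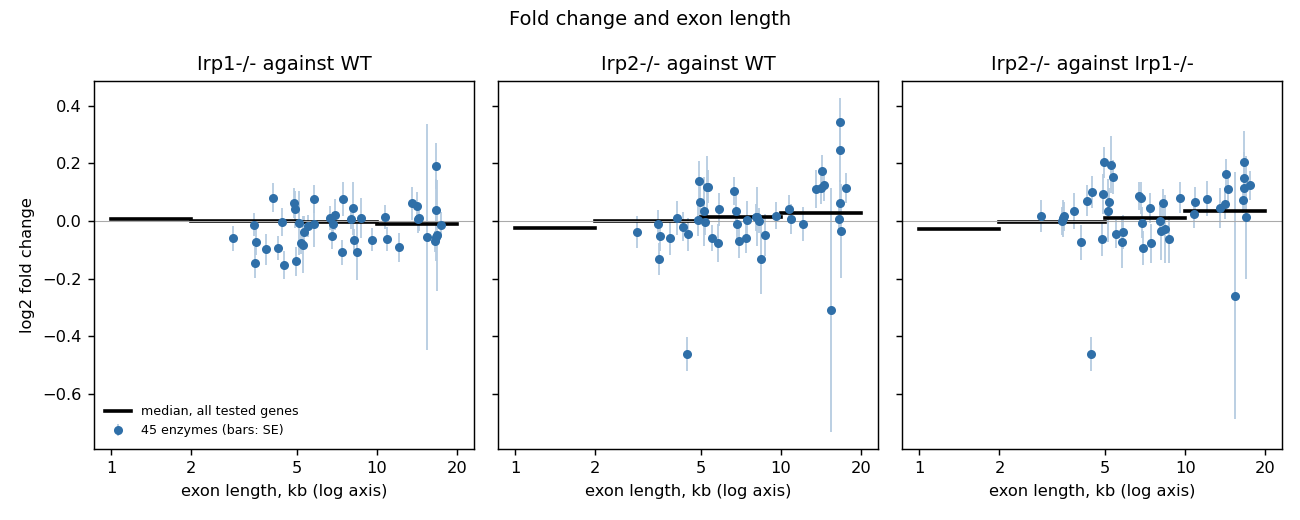
Log2 fold change of the 45 enzymes (points, bars show the SE) against exon length (log axis) in the 3 comparisons, with the median of all tested genes in 4 length classes (black lines; the last class, over 10 kb, is drawn to 20 kb). In Irp2-/- against WT testes the black line goes from -0.02 in genes up to 2 kb to 0.03 in genes over 10 kb, and the 14 long enzymes have a median of 0.09.

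Other genes of the same machinery were compared as background for these results. Of 92 further histone methyltransferases, demethylases, acetyltransferases, deacetylases, Polycomb and NuRD subunits, DNA methylation factors and remodelers, 90 were tested. In Irp1-/- against WT testes 0 of them had an adjusted p under 0.05 in edgeR or DESeq2, and at an unadjusted p under 0.05 edgeR gave 1 higher (6.69% of all tested genes) and 6 lower (5.44%) and DESeq2 8 in either direction (9.87%). In Irp2-/- against WT testes 2 rose at the adjusted threshold in edgeR and 0 fell (1.21% of all tested genes). At an unadjusted p under 0.05 edgeR gave 6 higher (4.69%) and 2 lower (4.74%), and DESeq2 8 in either direction (6.05%). Groups did not overlap for 10 on the high side (4.57%) and 0 on the low side (4.74%). The median of the 90 was 0.04, against 0.00 over all tested genes, with 60 positive values. Kmt2c, an H3K4 methylase of enhancers with 20291 bases of exon, had 42.9, 36.8 and 38.9 CPM in Irp2-/- and 28.1, 28.3, 32.9 and 34.0 CPM in WT mice (log2 fold change 0.36, SE 0.074, adjusted p = 0.0119, edgeR). Its adjusted p was 0.0508 in edgeR without Irp2-/- replicate 1. The remodeler Chd7, with 13786 bases, had 25.2, 29.2 and 26.2 CPM in Irp2-/- and 18.4, 21.5, 22.1 and 22.2 CPM in WT mice (log2 fold change 0.35, SE 0.077, adjusted p = 0.0162, edgeR). Without Irp2-/- replicate 2 its adjusted p was 0.171 in edgeR. Both genes are in the long class, as Kmt2a is.

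Between the knockouts, 3 of these 90 genes rose and 1 fell in Irp2-/- against Irp1-/- testes (4.69% of all tested genes). For Chd7 the log2 fold change came to 0.39 (adjusted p = 0.00238, edgeR), for Kmt2c to 0.24 (adjusted p = 0.0317, edgeR) and for Ash1l, an H3K36 methylase, to 0.21 (adjusted p = 0.0466, edgeR). The calls of Kmt2c and Ash1l were lost without a single mouse, at an adjusted p of 0.149 without Irp2-/- replicate 1 and of 0.282 without Irp2-/- replicate 3 (edgeR). Tdg, the glycosylase that removes oxidised methylcytosine, was lower, with a log2 fold change of -1.12 (SE 0.211, adjusted p = 0.00325, edgeR). It had 1.37, 2.96 and 2.59 CPM in Irp2-/- and 5.14, 3.79, 5.64 and 5.34 CPM in Irp1-/- mice, with WT mice at 2.76 to 4.36 CPM. Near-identical copies of Tdg could share its reads, so this value is uncertain.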

How the data were processed

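RNA of whole testes from 11 mice was examined. The authors deposited raw read counts per gene, obtained by an nf-core RNA-seq run with an mm10 annotation after demultiplexing (bcl2fastq 2.20.0.422, per the labels). The counting tool and its strand setting are not given in the sources used here, and the counts were not normalized. All sample columns were used. Their names also hold an R (Irp1-/- replicate 6) or an L (the rest), whose meaning is not stated. The labels number the samples without naming animals, so that p-values measure the spread between these samples.

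Counts were analysed in R 4.3.3 with edgeR 4.0.16 (filterByExpr, TMM, robust quasi-likelihood test, Benjamini-Hochberg adjustment over all tested genes), each comparison on its 2 genotypes. Standard errors were derived from fold change and F statistic, and 95% intervals span 1.96 standard errors. These intervals are approximate and can be narrower than the test implies. For Kdm4b in Irp2-/- against WT testes the lower bound was 0.005, with an unadjusted p of 0.0538 (edgeR). CPM used TMM factors of all 11 libraries. Exon lengths are unions of GENCODE M21 exons on mm10. The alternatives were RLE or total count scaling, other count filters, DESeq2 1.42.0 (used by the authors), all samples in one fit, a replicate block and leaving out each mouse. Full statistics were given for members with an unadjusted p under 0.05. In counts simulated for Irp2-/- against WT (16015 genes, 200 changed), 92% of 1.5-fold and 99% of 2-fold changes were recovered and 7.28% of calls were false. Changes were planted only in genes above a minimum level. Smaller changes, the size of those of the members, were not simulated. The members and lists were chosen with earlier results of these data known.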

Additional observations from a re-analysis of the deposited data

Results flagged for a closer look

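Suv39h2 had different changes in the knockouts: its log2 fold change in Irp2-/- against Irp1-/- testes was -0.46 (adjusted p = 4.4e-05, edgeR), which is the effect of Irp2-/- less the effect of Irp1-/- since both have the same WT mice, and it was lower in 3 of 3 Irp2-/- mice. Suz12 differed in the same way by 0.20 (adjusted p = 0.0319, edgeR), higher in 3 of 3 Irp2-/- mice than in all Irp1-/- mice, with an adjusted p over 0.05 without any single Irp1-/- mouse.

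Single mice that stood far from the others of their genotype were sought in 90 groups of 4 values, and 4 were found where chance gives 4.5. All were Irp1-/- mice. For Setdb1, replicate 6 had 70.7 CPM and the others 74.4 to 74.7 CPM, a gap of 0.935 of the range. For Crebbp, replicate 6 had 50.5 CPM and the others 43.1 to 43.8 CPM (gap 0.897). For Kat5, replicate 7 had 89.5 CPM and the others 83.4 to 83.6 CPM (gap 0.968). For Chd4, replicate 7 had 351.0 CPM and the others 375.7 to 378.9 CPM (gap 0.886). Replicate 7 had the fewest counts of all libraries and was the lowest of its genotype for 19 of 45 members.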

How the results depend on the processing

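Of 372 recomputed values, 286 were of members with an unadjusted p under 0.05 in the comparison concerned. Of these 269 stayed in the same direction and on the same side of the threshold, 17 lost the threshold and 0 changed direction. The members were picked by their p in the main fit, so a kept direction says little. Most were not called there, and for them the same side means still not called. Only called members could lose the threshold. Suv39h2 was called in 14 of 14 alternatives in each of its comparisons, Kmt2a in 5 of 14 and Suz12 in 6 of 14. Members close to 0 could change sign, such as Suv39h2 in Irp1-/- against WT testes, which kept its sign in 8 of 15 alternatives. Of the whole comparisons 68 values moved less than the limits set for them. Medians of the members close to 0 changed sign: in Irp1-/- against WT testes to 9.2e-05 with total count scaling, and in Irp2-/- against WT testes in 3 of 14 alternatives (-0.0047 to -0.00024, with DESeq2 or without WT replicate 2 or 3). The number of members with an adjusted p under 0.05 in Irp2-/- against WT testes was 2, and it was 1 with total count scaling, DESeq2, all 11 samples in one fit or the replicate block, and 1 to 2 when single mice were left out. Suv39h2 was the gene kept in each. In Irp2-/- against Irp1-/- testes it was 2, and 1 with DESeq2 or the replicate block, and 1 to 2 without single mice, again with Suv39h2 kept. In Irp1-/- against WT testes it was 0 throughout. The cause of these losses was not tested. The median log2 fold change of the members in Irp1-/- against WT testes ranged from -0.037 to -0.0036 when single mice were left out, lowest without Irp1-/- replicate 6. Deviations of same-numbered mice of different genotypes had correlations from -0.001 to 0.094, and those of other pairs from -0.144 to 0.114. With so few mice these values cannot decide whether the numbers of the labels pair mice. The replicate block is 1 of the alternatives. Irp1-/- and WT mice share only the numbers 1 and 2, so the block there rests on those mice. It gave the highest adjusted p of Hdac2 (0.618, edgeR). Total count scaling shifted the median of all genes by at most 0.02 on the log2 scale, and members that changed sign under it had log2 fold changes of at most 0.02 in size. Low counts limit Tet1, Tet2 and Dnmt3b.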

Other observations

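Dioxygenases that use iron and 2-oxoglutarate outside chromatin, such as prolyl hydroxylases and RNA demethylases, were listed beside the 13 chromatin enzymes with the same cofactors. Of 21 listed genes 20 were tested, and 0 had an adjusted p under 0.05 in any of the 3 comparisons in edgeR or DESeq2. At an unadjusted p under 0.05 edgeR gave 1 higher gene in Irp1-/- against WT (6.69% of all tested genes), 1 higher and 1 lower in Irp2-/- against WT (4.69% and 4.74%), and 1 lower in Irp2-/- against Irp1-/- testes (8.85%), and DESeq2 gave 0 in each (9.87%, 6.05% and 12.0% in either direction). Their median log2 fold changes were 0.03, 0.04 and -0.04.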
